A study of Mus musculus with 3 samples.

Results

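The replication machinery of mouse T-helper 1 cells was read from total RNA-seq libraries through 48 genes chosen by symbol: the origin recognition complex, licensing factors, the replicative helicase, the polymerases, the sliding clamp and its loader, Okazaki fragment enzymes, the single-strand binding protein RPA, histone deposition and the E2F regulators. All 48 symbols matched a single row each among 50600 gene rows. The cells were primary T-helper 1 cells of strain C57BL/6NJ, with a CD4+ T cell differentiation protocol named in the labels, in 1 group of 3 biological replicates. No age, sex or developmental stage was given in the labels, and the replicates share a donor record. The file headers carry a 16 hr tag for all 3 libraries that the labels do not explain. With 1 group there was no comparison between conditions; genes were set against each other within a library, and values against the spread between libraries.

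DNA replication starts in G1, when the origin recognition complex, Cdc6 and Cdt1 load the MCM ring onto chromatin, a step called licensing. At S phase entry the kinase Cdc7, with its activator Dbf4, and cyclin-dependent kinase convert the ring into the active helicase with Cdc45 and the GINS complex, and polymerases alpha, delta and epsilon copy the strands around the clamp PCNA. Resting T cells hold most of these genes low, activation through the T cell receptor raises them before the first division, and E2F proteins are the regulators best known for that rise.

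The libraries held 4764598, 2568928 and 2815439 assigned fragments in replicates 1, 2 and 3. Fragments were counted by strand, with setting 1 per the file headers, and the sources used here do not say which strand the kit marks. Whether a count stands for the gene's own RNA or for RNA of the other strand was therefore not tested, and each level below is a level of fragments assigned under that setting. All 8 T cell markers examined reached 1 TPM (a length-scaled share of the library, computed here from counts and gene lengths) in every library, with a summed level between 715 and 1475 TPM. Of 10 markers of B, myeloid, natural killer, CD8+ and erythroid cells, 8 had no counts in any library, among them Ms4a1, Cd14, Itgam, Lyz2, Ncr1 and Cd8a. The B cell marker Cd79a had 27, 0 and 17 counts, or 8.22, 0 and 7.34 TPM, in replicates 1, 2 and 3, and the natural killer marker Klrb1c had 1, 0 and 0 counts. The part of other cells in the levels below was not tested. Although the donor record is shared, Xist counts (807, 1110 and 4) and the sum of 4 Y-linked genes (395, 0 and 215 in the same order of replicates) differed in kind between libraries. In bulk RNA, fewer cells of a kind and less RNA per cell cannot be told apart, so the levels below do not give the share of cells in S phase.

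By fragments assigned under strand setting 1, every replication gene was detected. All 48 reached 1 TPM in replicates 1, 2 and 3, where 39.8% of the 21764 coding genes did so. The lowest count of any of the 48 was 12, and the median count of the 48 was 337.5, 155.5 and 118 in replicates 1, 2 and 3. Their median was 43.6, 32.4 and 19.8 TPM in replicates 1, 2 and 3, against 0.462, 0 and 0.346 TPM for all coding genes. In all 3 libraries 40 of the 48 lay in the upper 25% of coding genes, where 21.3% of coding genes lie, and 18 lay in the upper 10%, where 8.14% lie. The median log2(TPM + 1) of the 48 exceeded that of coding genes by 4.65 ± 0.61 (SD, n = 3), and that of coding genes with a mean of at least 1 TPM by 1.403 ± 0.19, in 3 of 3 libraries. Together the 48 held 0.309%, 0.268% and 0.158% of TPM in replicates 1, 2 and 3.

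In TPM replicate 3 was the lowest library for 43 of the 48 genes and replicate 1 the highest for 39. This order was not particular to them. Coding genes with a mean of at least 1 TPM had medians of 13.6, 12.0 and 7.81 TPM in replicates 1, 2 and 3. TPM divides by a sum over all genes, and genes overlapping a gene of the other strand made up more of the counts in replicate 3: clear genes, those with no exon within the body of a gene of the other strand, held 1997522, 969322 and 755068 counts. Clear genes therefore gave a second scale. Of the 48, 33 were clear, and they held 0.933%, 0.919% and 0.797% of the counts of all clear genes in replicates 1, 2 and 3. All 48 held 0.557%, 0.509% and 0.348% of all counts, a wider range, though over another set of genes.

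The plot of levels by role shows each gene in each library.

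**Figure D1:**
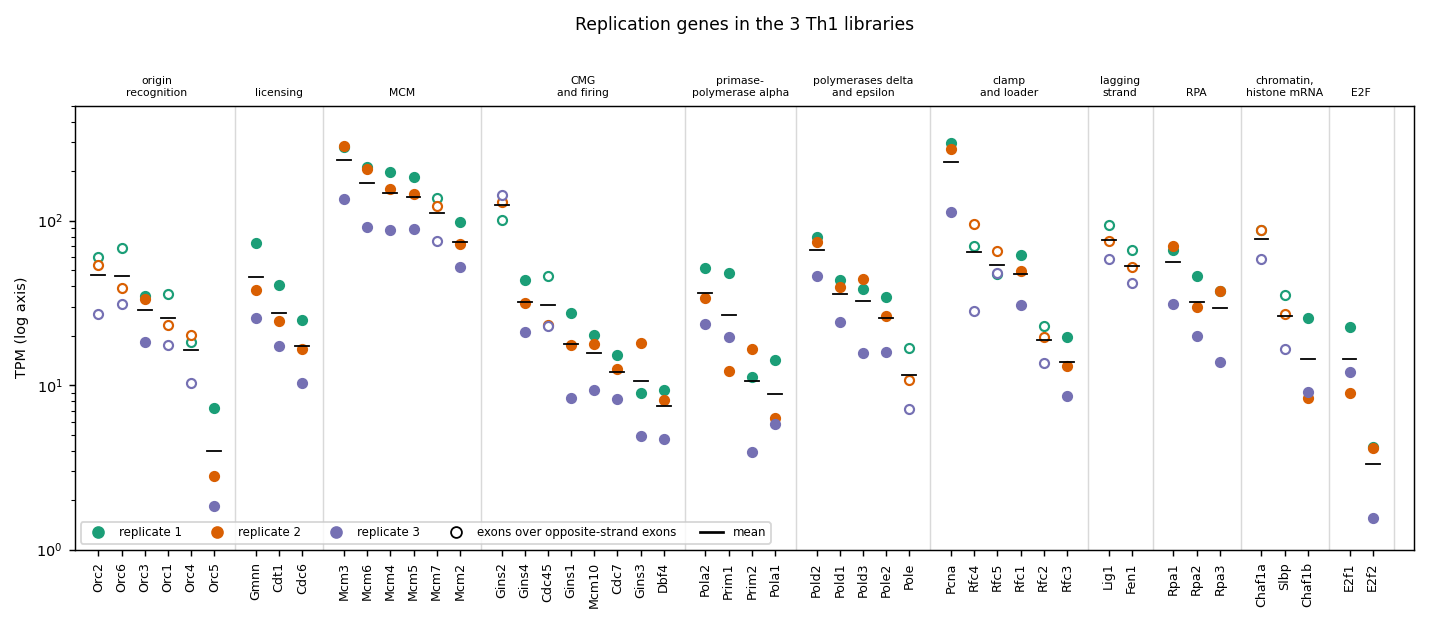
TPM on a log axis for the 48 replication genes in replicates 1, 2 and 3, grouped by role and ordered by mean, with open symbols where exons overlap exons of the other strand. The MCM genes and Pcna sit highest, Orc5 and E2f2 lowest, and replicate 3 is the lowest point for most genes.

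The MCM2 to MCM7 subunits, which form the helicase ring, were the highest group, with a median of 144 TPM ± 52.2 (SD, n = 3). Mcm3, on chromosome 1 from 20802968 to 20820312 (mm10), had 280, 283 and 136 TPM in replicates 1, 2 and 3 and the highest mean of the 48 genes, with Pcna above it in replicate 1 and Gins2 in replicate 3. Mcm6 had 213, 206 and 91.3 TPM, Mcm4 had 199, 156 and 87.3 TPM, and Mcm5 had 185, 145 and 89.5 TPM. Mcm2, on chromosome 6 from 88883474 to 88898780, was the lowest subunit at 97.7, 72.0 and 52.0 TPM. The ring is built from equal numbers of its subunits, whereas their TPM spanned 2.86, 3.93 and 2.61-fold from lowest to highest in replicates 1, 2 and 3. Mcm7 had 137, 123 and 75.6 TPM; its exons overlap 2 genes of the other strand and hold the microRNA genes Mir25 and Mir93, which had 0 counts.

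Promoter letters are shown for 3 MCM genes and for the clamp loader gene Rfc3, because these carry more than 1 copy of the E2F letters; Mcm7, which does too, has its RefSeq start 539 bases from the table's and is not shown. Of the 48 genes, 40 had an entry in the RefSeq promoter table (GRCm38.p6), which spans 250 bases before to 50 bases after the start, and 8 genes, Gins1, Gins2, Gins4, Gmnn, Mcm4, Pole, Prim2 and Rfc2, had none. The window nearest to the gene's start in the deposited tables was used. Capitals mark the E2F forms TTTCCCGC, TTTCGCGC, TTTGCCGC and TTTGGCGC on either strand; neighbouring copies can overlap and then share letters. The windows lie at chr1:20820263-20820562 (minus strand) for Mcm3, chr8:75109259-75109558 (plus strand) for Mcm5, chr1:128359656-128359955 (minus strand) for Mcm6 and chr5:151651159-151651458 (minus strand) for Rfc3, and are written along the gene's strand.
Mcm3: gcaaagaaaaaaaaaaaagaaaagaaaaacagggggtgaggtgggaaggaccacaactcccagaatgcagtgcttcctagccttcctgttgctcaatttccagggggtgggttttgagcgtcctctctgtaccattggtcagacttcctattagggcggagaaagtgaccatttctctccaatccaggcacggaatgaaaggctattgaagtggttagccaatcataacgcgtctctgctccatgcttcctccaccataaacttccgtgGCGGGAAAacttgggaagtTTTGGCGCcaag
Mcm5: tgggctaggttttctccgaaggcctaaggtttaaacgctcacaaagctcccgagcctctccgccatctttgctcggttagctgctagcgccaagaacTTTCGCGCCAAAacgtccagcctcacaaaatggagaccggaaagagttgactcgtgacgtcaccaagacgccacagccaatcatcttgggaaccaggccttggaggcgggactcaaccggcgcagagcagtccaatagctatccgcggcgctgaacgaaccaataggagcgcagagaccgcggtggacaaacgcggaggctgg
Mcm6: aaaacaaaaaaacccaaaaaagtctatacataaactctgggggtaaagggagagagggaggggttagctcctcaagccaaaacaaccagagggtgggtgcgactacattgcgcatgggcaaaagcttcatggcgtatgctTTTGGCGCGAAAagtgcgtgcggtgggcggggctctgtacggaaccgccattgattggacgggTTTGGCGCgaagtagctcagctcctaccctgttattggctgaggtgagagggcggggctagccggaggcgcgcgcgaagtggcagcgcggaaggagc
Rfc3: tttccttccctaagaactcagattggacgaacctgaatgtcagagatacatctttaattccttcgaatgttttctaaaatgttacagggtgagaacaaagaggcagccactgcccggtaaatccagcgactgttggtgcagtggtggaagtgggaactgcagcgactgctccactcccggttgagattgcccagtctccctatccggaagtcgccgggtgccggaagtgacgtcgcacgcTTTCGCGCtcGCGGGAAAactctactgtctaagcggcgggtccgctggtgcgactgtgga

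These letters were common among the replication genes. At least 1 of the 4 E2F forms lay in 15 of 40 windows, against 2.94% of 16469 coding gene windows and 4.9% of the 6934 whose gene reached 1 TPM in every library. In 5 genes, Mcm3, Mcm5, Mcm6, Mcm7 and Rfc3, there was more than 1 copy, and Mcm6 held 3. Of the 21 copies, 14 began within 50 bases of the start. CCAAT, the letters bound by NF-Y, lay in 24 of 40 windows (38.7% of coding windows, and 39.2% where the gene reached 1 TPM), and GGGCGG, a GC box bound by Sp1, in 30 of 40 (48.3%, and 67% where the gene reached 1 TPM). Median GC content was 62.7% in the 40 windows, 57% in all coding windows and 61.3% where the gene reached 1 TPM. Presence of the letters did not sort the genes by level: the 15 with an E2F form had a median of 27.4 TPM (range 3.30 to 233), and the 25 without had 36.3 TPM (range 3.97 to 227). Pcna was among those without a match, as were E2f1 and Mcm2, which says only that these letters were not in their windows. The RefSeq start of E2f1 is 466 bases from the deposited one, and its window lies wholly inside the gene by the deposited coordinates. The same holds for Cdc6, at 350 bases, and Mcm7, at 539 bases, each counted as a match. The windows of Fen1, at 224 bases, Lig1, at 108, and Rpa1, at 59, are without a match and lie wholly before the gene. Those of Mcm5, at 60 bases, and E2f2, at 120, also lie wholly before the gene and are counted as matches.

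**Figure D2:**
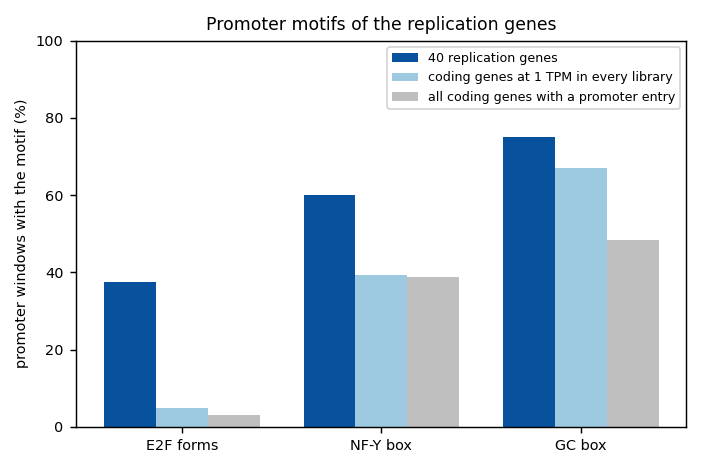
Share of promoter windows, in %, that hold an E2F form, the NF-Y box or the GC box among the 40 replication genes with an entry, coding genes at 1 TPM in every library and all coding genes with an entry. The E2F bars stand at 37.5%, 4.9% and 2.94%.

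Origin recognition genes, whose protein complex marks origins, were lower than the MCM genes, with a median of 27.2 TPM ± 8.82 (SD, n = 3). Orc2 had 59.8, 53.7 and 26.9 TPM in replicates 1, 2 and 3 and Orc6 had 68.3, 39.1 and 31.3 TPM. Orc5, on chromosome 5 from 22486485 to 22550429, was the lowest subunit at 7.27, 2.80 and 1.84 TPM from 101, 22 and 18 counts, and some of its exonic bases are shared with the pseudogene Gm15421 on the same strand. In each library the median of the 6 MCM genes was about 5 times that of the 6 ORC genes, at 5.42, 5.33 and 4.93-fold in replicates 1, 2 and 3. The mean log2 ratio was 2.39, and 3.17 over clear genes alone, which leaves Orc3 and Orc5 of the ORC genes. Orc1, the largest subunit, had 36.1, 23.2 and 17.5 TPM, or 1.04, 0.696 and 0.959 times the median of Orc2 to Orc6, so its side of the others was not the same in every library. Orc4 had 18.4, 20.3 and 10.3 TPM. Of the 6 ORC genes, Orc3 and Orc5 were clear.

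Among the licensing factors, Gmnn, which encodes geminin, the inhibitor that binds Cdt1 and blocks relicensing, was above its target. Gmnn, on chromosome 13 from 24751845 to 24761923, had 72.7, 38.0 and 25.8 TPM in replicates 1, 2 and 3. Cdt1, on chromosome 8 from 122568015 to 122573554, had 40.4, 24.7 and 17.2 TPM, and Cdc6, the ATPase that loads MCM together with Cdt1, had 24.8, 16.6 and 10.3 TPM. In counts per kilobase Cdt1 had 0.556, 0.651 and 0.669 times Gmnn in replicates 1, 2 and 3, and Cdc6 had 0.613, 0.673 and 0.600 times Cdt1. The order Gmnn, Cdt1, Cdc6 was the same in 3 of 3 libraries, all 3 genes are clear, and the SD of the log2 ratios was 0.14 and 0.09. This order rests on scaling by the deposited gene lengths. Without it the mean log2 ratios changed sign, to 0.42 for Cdt1 over Gmnn and 0.065 for Cdc6 over Cdt1. With 3 libraries an exact two-sided sign-flip test cannot go below p = 0.25, which is what every ratio here with 1 sign in all 3 libraries gave.

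Most genes of helicase activation stood below the ring itself, with Gins2 as the exception. Mcm10, an activator of the helicase, had 20.2, 17.7 and 9.32 TPM in replicates 1, 2 and 3, and its counts per kilobase were 0.105, 0.118 and 0.105 times the median of Mcm2 to Mcm7. Cdc45, which completes the active helicase, had 46.1, 23.3 and 22.9 TPM. Within GINS, a complex of 4 subunits, Gins4 had 43.4, 31.4 and 21.0 TPM, Gins1 had 27.5, 17.6 and 8.30 TPM and Gins3 had 9.00, 17.9 and 4.88 TPM. Gins2 had 101, 131 and 144 TPM, above Mcm2 in every library and above all MCM genes in replicate 3, and it was highest in replicate 3 where the other GINS genes were lowest. Of its exonic length 2758 bases, or 67.3%, overlap exons of Gse1 on the other strand. Cdc45 had 1.30, 0.946 and 1.56 times the median of the GINS genes, so that ratio had no common sign.

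The firing kinase kept 1 order of subunits. Cdc7, the catalytic subunit, had 15.3, 12.6 and 8.27 TPM in replicates 1, 2 and 3, and Dbf4, its activator, had 9.40, 8.17 and 4.68 TPM, the lowest mean of the helicase activation group. In counts per kilobase Cdc7 had 1.62, 1.54 and 1.77 times Dbf4. Both genes are clear. Without scaling by length the mean log2 ratio of Cdc7 to Dbf4 was -0.35 instead of 0.71.

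Polymerase alpha and primase, which start each new strand with a short RNA-DNA primer, held the pair with the widest ratio between libraries. Pola2 had 51.6, 33.8 and 23.4 TPM in replicates 1, 2 and 3, while the catalytic subunit Pola1, on chromosome X, had 14.3, 6.32 and 5.78 TPM, or 0.277, 0.187 and 0.247 times Pola2 in counts per kilobase. Prim1, the catalytic primase subunit on chromosome 10 from 128015168 to 128030037, had 47.9, 12.2 and 19.7 TPM from 418, 60 and 121 counts. Prim2, the large primase subunit on chromosome 1 from 33453810 to 33669795, had 11.3, 16.6 and 3.92 TPM from 151, 126 and 37 counts. Prim1 was therefore 4.25 and 5.02 times Prim2 in replicates 1 and 3 but 0.731 times Prim2 in replicate 2, and neither gene overlaps an exon of the other strand.

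Polymerases delta and epsilon, which extend the lagging and leading strands, each kept the order of catalytic and second subunit. Pold2 had 79.8, 74.4 and 46.1 TPM in replicates 1, 2 and 3. The catalytic Pold1 had 0.548, 0.531 and 0.525 times its counts per kilobase, the ratio with the second smallest SD (0.03 on the log2 scale) of the 16 examined. Counting error is wider than this spread: the exact 95% Poisson interval of Pold2 in replicate 3 was 38.8 to 54.4 TPM. Without scaling by length the mean log2 ratio of Pold1 to Pold2 was 0.45 instead of -0.90. Pold3, an accessory subunit, had 38.2, 44.1 and 15.7 TPM, or 0.873, 1.12 and 0.649 times Pold1, with no common sign. Pole, the catalytic subunit of polymerase epsilon, had 16.7, 10.7 and 7.16 TPM and Pole2 had 34.3, 26.4 and 15.96 TPM. In counts without scaling by length Pole exceeded Pole2, since its exons are 11160 bases long against 1695 bases.

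Pcna, the sliding clamp on chromosome 2 from 132249162 to 132253314, had 295, 273 and 113 TPM in replicates 1, 2 and 3. It was second by mean, and its order against Mcm3 changed between libraries. The processed pseudogenes Pcna-ps1 and Pcna-ps2 had 0 counts apart from 4 of Pcna-ps2 in replicate 1; reads that fit a copy equally well may be missing from Pcna. Rfc1, the large subunit of the loader that opens the clamp, had 61.7, 49.7 and 30.7 TPM, or 1.76, 1.16 and 1.46 times the median of the small subunits Rfc2 to Rfc5. The mean log2 ratio was 0.53, and 1.81 over clear genes alone, which leaves Rfc3 of the small subunits. Rfc3 was the lowest subunit with 19.7, 13.0 and 8.53 TPM. Rfc2 had 22.9, 19.7 and 13.7 TPM. Rfc4 had 70.3, 96.1 and 28.3 TPM and Rfc5 had 47.3, 65.8 and 48.2 TPM, and all 3 overlap exons of the other strand.

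Fen1, the flap endonuclease, and Lig1, the ligase that seals Okazaki fragments, had a similar ratio in all 3 libraries. Fen1 had 65.9, 52.1 and 41.8 TPM in replicates 1, 2 and 3, and Lig1 had 94.0, 75.1 and 58.7 TPM. Fen1 stood at 0.701, 0.694 and 0.713 times Lig1 in counts per kilobase, the smallest SD of the 16 ratios (0.02 on the log2 scale), although 78.8% of the exonic length of Fen1 lies under Gm10143. Of the RPA subunits, which coat single-stranded DNA, Rpa1 had 66.5, 70.4 and 31.2 TPM, Rpa2 had 45.8, 29.9 and 20.0 TPM and Rpa3 had 37.5, 37.3 and 13.8 TPM in replicates 1, 2 and 3. Rpa2 and Rpa3 changed order between libraries.

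The chromatin assembly pair was less even. Chaf1a, the large subunit of the histone chaperone CAF-1, had 87.7, 87.4 and 58.6 TPM in replicates 1, 2 and 3, while Chaf1b had 25.7, 8.31 and 9.05 TPM, a ratio of 3.41, 10.5 and 6.47. Slbp, which binds the stem-loop of histone mRNA, had 35.3, 27.2 and 16.6 TPM. The regulators were the lowest group: E2f1 had 22.5, 8.95 and 12.0 TPM and E2f2 had 4.18, 4.17 and 1.55 TPM. The last value rests on 12 counts, with an exact 95% Poisson interval of 0.799 to 2.70 TPM that covers counting error only. E2f1 exceeded E2f2 by 5.38, 2.14 and 7.74-fold.

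**Figure D3:**
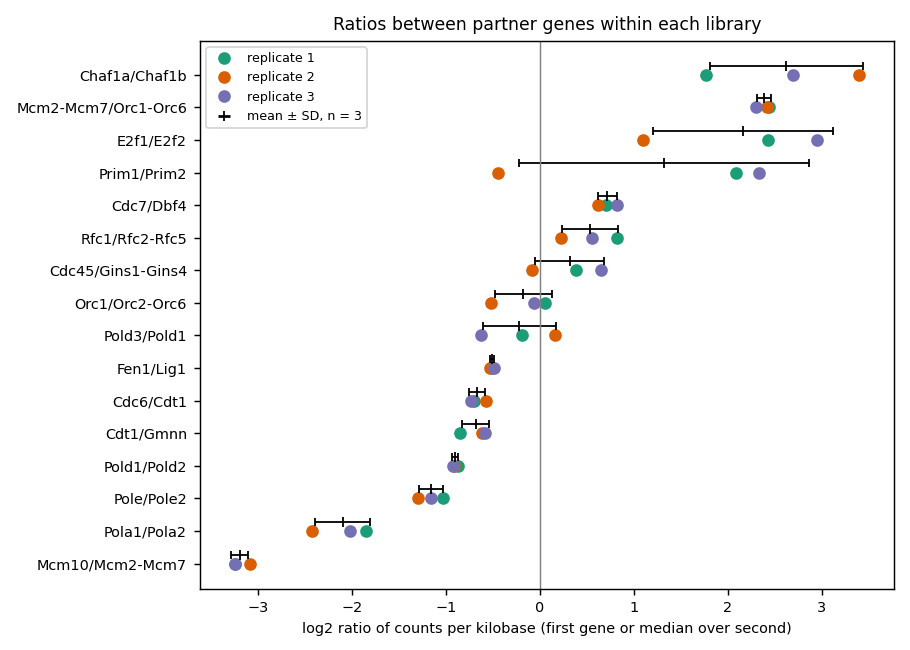
Log2 ratios of counts per kilobase between partner genes or medians of subunits in each library, with mean ± SD (n = 3) above each row. Fen1/Lig1 and Pold1/Pold2 have the smallest SD, under counting error, and Prim1/Prim2 spreads widest, with replicate 2 on the other side of 0.

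The order of the 48 genes was broadly kept between libraries, but fine ranks were not. Spearman rho over the 48 was 0.923 for replicates 1 and 2, 0.975 for replicates 1 and 3 and 0.937 for replicates 2 and 3, as a description of genes that share gene lengths and libraries. Of the 47 pairs of neighbours in the order of mean TPM, 8 kept their order in all 3 libraries, and in 6 the mean log2 ratio exceeded its SD.

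Most of the genes, like most coding genes tested, varied between libraries by more than counting error. A chi-square test of each gene's counts against library sizes scaled by TMM (the trimmed mean of M values), with Benjamini-Hochberg adjustment over 8128 coding genes, called 37 of the 48 at an adjusted p under 0.05, where it called 67.4% of coding genes. It compares these libraries, not conditions. The median chi-square was 8.60 times its degrees of freedom for the 48 and 6.25 times for coding genes, and the median biological coefficient of variation from edgeR was 0.293 and 0.305. Among clear genes 26 of 33 were called, where 64.2% of clear coding genes were, and among overlapped genes 11 of 15, where 72.3% were. Without replicate 1 the count fell to 19 of 48, where 46.9% of coding genes were called. Without replicates 2 or 3 it was 33 and 26, where 43.1% and 43.4% of coding genes were called. The 11 genes not called were Cdc7, Dbf4, Gins4, Pold1, Pold2, Pole2, Lig1, Fen1, Rfc2, Chaf1a and E2f2. Both subunits of the firing kinase and the polymerase delta core are among them. Their counts summed over the libraries ran from 84 for E2f2 to 1712 for Lig1, with 266 for Cdc7 and 341 for Dbf4. With fewer counts a difference is harder to call, so a gene not called is not thereby shown to be steady.

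Of the 48 genes, 24 were called and highest in replicate 1 (26.4% of coding genes tested were), 11 in replicate 2 (22.8%) and 2 in replicate 3 (18.1%). As a share of called genes, 64.9% of the replication genes were highest in replicate 1, and 39.2% of coding genes. Among clear genes 17 of 33 were called and highest in replicate 1, where 31.8% of clear coding genes were. With TMM over clear genes, 18, 8 and 4 of 30 called genes were highest in replicates 1, 2 and 3, while called coding genes split 24.2%, 30.9% and 44.9%, against 39.2%, 33.9% and 26.9% with TMM over all genes. The 2 highest in replicate 3 with TMM over all genes were Gins2 and Rfc5, and both have exons over opposite-strand exons. Because the scaling leaves a shift between libraries, values are given relative to the median of clear coding genes, which was 0.08 for replicate 1 over 2 and 0.34 for replicate 1 over 3 on the log2 scale. Relative to it, clear replication genes had a median of 0.14 for replicate 1 over 2, with 19 of 33 above 0, and 0.22 for replicate 1 over 3, with 26 of 33 above 0. For replicate 2 over 3 it was -0.03, with 14 of 33 above 0.

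The genes highest in replicate 1 over replicate 2 were Prim1 (relative log2 ratio 1.78), Chaf1b (1.43), Orc5 (1.17), E2f1 (1.13) and Pola1 (0.98), all clear. In TMM-scaled CPM, Prim1 had 79.5, 21.9 and 50.5 in replicates 1, 2 and 3 and Chaf1b had 55.2, 19.4 and 30.1. On the other side were Gins3 (-1.20) and Prim2 (-0.76), also clear, with 10.5, 22.7 and 8.77 scaled CPM for Gins3 and 28.7, 46.1 and 15.4 for Prim2. The lowest of replicate 1 over replicate 3 were Gins2 (-1.47) and Rfc5 (-0.99). For replicate 1 over replicate 2, Prim1 and Prim2 lay on opposite sides of 0, as did Gins1 (0.44) and Gins3, while Pola1 and Pola2 (0.40) lay on the same side. Which difference between the libraries goes with these genes was not tested. Replicate 2 is the library with no Y-linked counts, no Cd79a counts and the fewest assigned fragments.

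**Figure D4:**
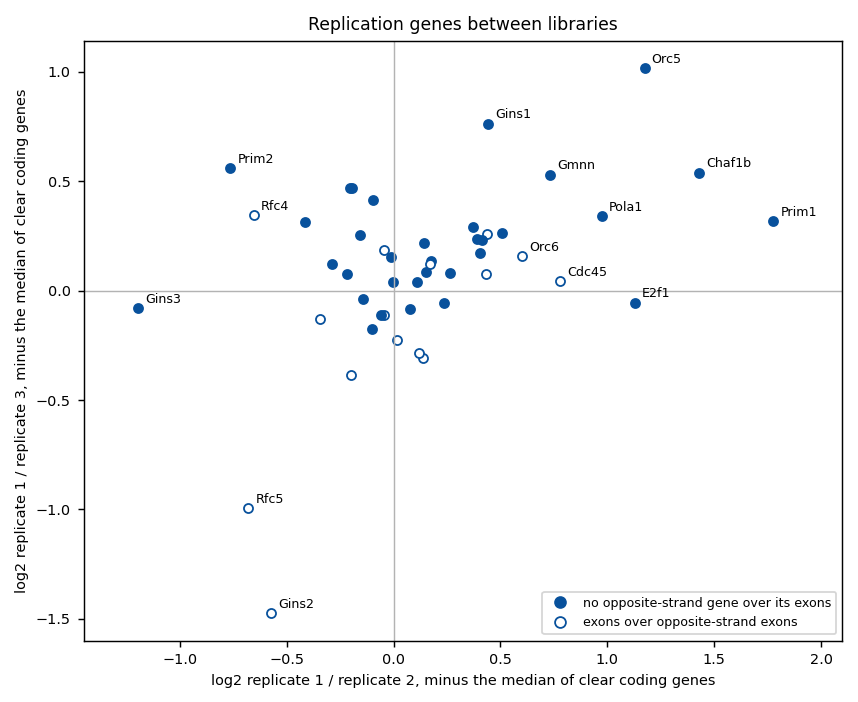
Log2 ratio of replicate 1 to replicate 2 (x axis) and to replicate 3 (y axis) for the 48 replication genes, from TMM-scaled counts and relative to the median of clear coding genes; open symbols have exons over opposite-strand exons. Prim1, Chaf1b, Orc5, E2f1 and Pola1 lie to the right, Gins3 and Prim2 to the left, and Gins2 and Rfc5 at the bottom.

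Overlap with exons of the other strand touched 15 of the 48 genes, or 31.2%, against 22.1% of all coding genes. By exons within the body of such a gene it was also 15 of the 48. Of the 8128 coding genes tested for spread between libraries, 3180 had such an exon, a higher share than in the 48. The 15 were Mcm7, Cdc45, Gins2, Orc1, Orc2, Orc4, Orc6, Pole, Rfc2, Rfc4, Rfc5, Fen1, Lig1, Chaf1a and Slbp. By largest overlap, 9 pairs met tail to tail, 5 head to head, and Gm15792 lay inside Pole. How far fragments of a gene were assigned to the gene facing it was not tested.

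Noncoding partners had a higher density of counts than the replication genes they face. At the Fen1 locus Gm10143, annotated as antisense, had 9886, 5408 and 8385 counts in replicates 1, 2 and 3, against 360, 161 and 161 for Fen1, and per kilobase 20.0, 24.4 and 37.8 times Fen1. Gm10459, head to head with Slbp, reached 12.7, 11.4 and 33.0 times its density of counts. Gm15792 had 15.7, 21.2 and 42.1 times those of Pole, and Gm12743 had 5.16, 8.02 and 12.4 times those of Orc1. All 4 noncoding partners were above their replication gene in 3 of 3 libraries, with the highest ratio in replicate 3. Whether these counts stand for RNA of the partners or for RNA of the replication genes was not tested.

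Coding partners, taken by largest overlap, were mixed: 3 of 11 were above the replication gene in every library, 6 were below in every library and 2 changed side. In counts per kilobase Nif3l1 had 3.34, 3.92 and 8.10 times Orc2, Eif4a2 had 2.01, 1.72 and 3.09 times those of Rfc4, and Ubxn6 had 1.97, 2.15 and 3.53 times those of Chaf1a in replicates 1, 2 and 3. Below were Gse1 at 0.288, 0.267 and 0.241 times Gins2, Wsb2 at 0.229, 0.140 and 0.198 times Rfc5, Vps35 at 0.355, 0.456 and 0.329 times Orc6 and Ufd1 at 0.320, 0.473 and 0.310 times Cdc45. Lat2 had 0.229, 0.441 and 0.456 times Rfc2, and Zswim9, the lowest, had 0.0187, 0.0571 and 0.0253 times Lig1. Ap4m1 had 0.892, 0.849 and 2.08 times Mcm7, whose second coding partner Cops6, with an overlap of 64 bases, had 1.39, 1.51 and 1.82 times. Acvr2a had 0.942, 1.43 and 2.14 times Orc4. In 10 of the 15 pairs the ratio of partner to replication gene was highest in replicate 3. The 15 overlapped genes had a median of 59.8, 52.1 and 28.3 TPM, against 38.2, 29.9 and 17.2 TPM for the 33 clear ones.

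**Figure D5:**
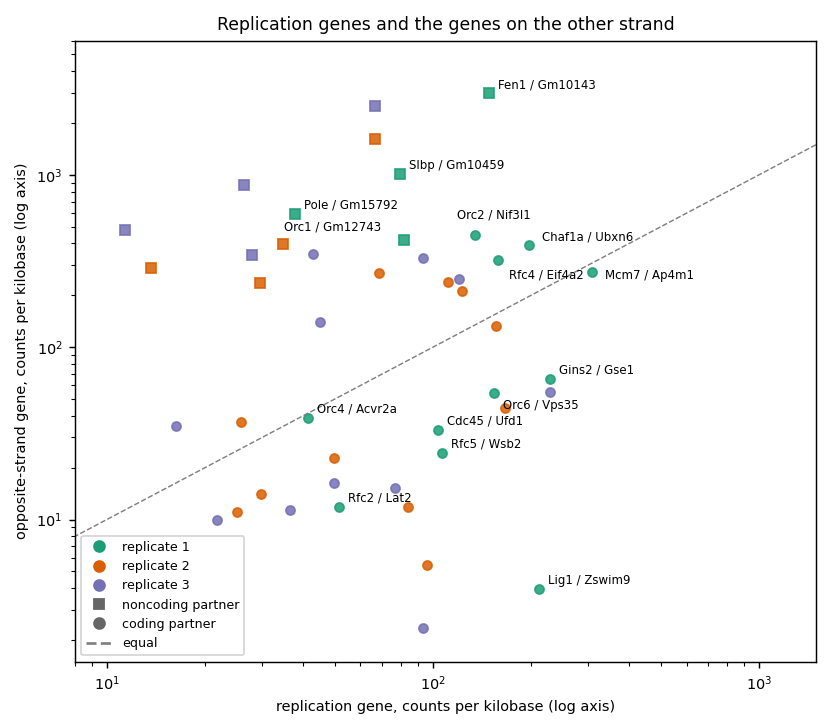
Counts per kilobase, on log axes, of 15 replication genes and of the opposite-strand gene with the largest exon overlap, in replicates 1, 2 and 3; names stand at replicate 1 and squares mark noncoding partners. The 4 noncoding partners lie above the line of equal density, and Zswim9 facing Lig1 lies farthest below it.

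Some of the genes share a start region with a neighbour. In 11 of the 48 genes the start lay within 500 bases of the start of a coding gene on the other strand, where 8.8% of coding genes and 16.5% of those at 1 TPM in every library had such a neighbour; the difference was not tested. The pairs were Orc1 with Prpf38a, Orc3 with Rars2, Orc6 with Vps35, Mcm4 with Prkdc, Mcm7 with Ap4m1, Cdc45 with Ufd1, Dbf4 with Slc25a40, Pole with Pxmp2, Fen1 with Tmem258, Rpa1 with Smyd4 and Rpa3 with Umad1. Orc3 and Rars2 start 13 bases apart. Mcm4 and Prkdc, the kinase of DNA end joining, start 466 bases apart.

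Other genes of the pathway, a list of 45 that act beside these 48 (fork protection, firing, RNA primer removal, E2F partners), were mostly detected. Of them, 41 reached 1 TPM in every library, where 39.8% of coding genes did so, and the median of the 45 mean levels was 22.4 TPM. Rnaseh2c and Rnaseh2a, subunits of RNase H2, which removes RNA from DNA, were highest at 354, 430 and 386 TPM and at 283, 218 and 342 TPM. Donson, a fork protein, had 200, 251 and 237 TPM and Ccna2, the S phase cyclin A2, had 176, 256 and 184 TPM. All 4 overlap exons of the other strand, as do 21 of the 45 in all, and in none of the 4 was replicate 3 the lowest library in TPM. E2f7, a repressor of the E2F family, was under 1 TPM in every library with 8, 9 and 5 counts. The other 3 that missed 1 TPM in some library, named here with their values in view, were Pold4 with 17, 0 and 10 counts, E2f8 with 36, 6 and 14 counts and Tfdp2 with 32, 16 and 9 counts.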

How the data were processed

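RNA was sequenced from 3 samples of T-helper 1 cells, which formed 1 group, with replicate numbers from the labels' descriptions. The authors deposited raw counts for each gene. Per the file headers, read pairs were assigned to GENCODE vM13 exons (mm10) by featureCounts v1.4.6-p4 under strand setting 1. Which aligner and kit were used is not stated there. The labels say total RNA, but the linked library protocol carries poly(A) in its name. In the labels, nothing beyond separate biosample records shows separate cultures. Xist and Y-linked counts differed in kind between libraries, so the libraries did not share a single pool of cells. The spread may still be partly technical, and how far was not tested.

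Names came from GENCODE vM21 (50376 of 50600 identifiers). TPM was computed from counts and deposited gene lengths, with a pseudocount of 1 on the log2 scale. Overlaps came from the exon coordinates in the tables. TMM, the filter on low counts and coefficients of variation used edgeR 4.0.16, and alternatives used DESeq2 1.42.0. A further marker is not reported here. The chi-square test was checked on simulated counts. The members, lists and pairs were chosen with earlier results of these data known. All 48 genes passed every filter and are named by rule; per-library values are given for the highest and lowest of each role, partners, and overlapped genes. The alternatives were other units, pseudocounts, scalings, filters and overlaps, and each replicate left out; the test restricted to clear genes was chosen after seeing the data. Scripts ran in R 4.3.3 and Python 3.11.15 with SciPy 1.17.1, pandas 2.3.3, matplotlib 3.10.9 and numpy 2.4.6.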

Additional observations from a re-analysis of the deposited data

How the results depend on the processing

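No paired analysis was possible because there is 1 group. Across the alternatives, 111 recomputed values kept their direction (ratios) or stayed within 1 SD (levels) or 1.5 times (counts) of the value reported; for the others no cause was tested beyond what a setting does by construction. Ratios that kept their direction could still move: over clear genes alone, log2 Rfc1/Rfc2-Rfc5 was 1.81 instead of 0.53 and MCM/ORC 3.17 instead of 2.39, and with no length scaling Pola1/Pola2 was -0.48 instead of -2.10. The median log2(TPM + 1) of the 48 genes, 4.97, was 4.04 in FPKM. In TPM over clear genes, which leaves the 33 clear ones and changes the sum, it was 6.76. Its excess over coding genes, 4.65, was 3.86 in FPKM, 6.70 with a pseudocount of 0.1, 6.76 for clear against clear coding genes and 1.403 against coding genes with a mean of at least 1 TPM. Counts with no length scaling turned 5 log2 ratios, since the longer gene collects more reads: Cdt1/Gmnn from -0.68 to 0.42, Cdc7/Dbf4 from 0.71 to -0.35, Pold1/Pold2 from -0.90 to 0.45, Pole/Pole2 from -1.16 to 1.56 and Cdc6/Cdt1 from -0.67 to 0.065. Genes that varied beyond counting error numbered 19 to 33 with a replicate left out, where 43.1% to 46.9% of coding genes were called. They numbered 34 with DESeq2 size factors (64.7% of coding genes), 48 with total counts (82.3%) and 30 with TMM over clear genes (60.2%). All 48 genes had at least 10 counts in every library, and 43 reached 5 TPM. Depth limits E2f2 and Orc5 most, at 12 and 18 counts in replicate 3.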
